A study of Homo sapiens with 3 samples.

Results

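The genes described here belong to the unfolded protein response (UPR) and to the folding machinery of the endoplasmic reticulum (ER). They are 35 ER stress and ER folding genes, and every probe set for which the array's annotation names 1 of them was taken. Of 21357 genes named on the array, these 35 were found on 79 probe sets. For 3 of these probe sets the annotation also named a microRNA gene, 2 for HSP90B1 and 1 for SYVN1, so their signals were not assigned, and SYVN1 has no value here. The other 34 genes had 76 probe sets, 1 each for 10 genes and several for 24. A gene is represented by its brightest probe set unless another is named.

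Proteins that enter the ER fold there with the help of chaperones, disulphide isomerases and glycan-binding lectins. When unfolded protein accumulates, 3 membrane sensors signal to the nucleus. IRE1 (ERN1) splices the mRNA of the transcription factor XBP1, and ATF6 is cleaved to release a transcription factor. Together these switch on chaperones and the machinery that returns misfolded proteins to the cytosol for degradation. PERK (EIF2AK3) phosphorylates eIF2, which lowers general translation while the factor ATF4 is made, and ATF4 with CHOP (DDIT3) switches on amino acid, redox and feedback genes. The ATF4 branch also responds to kinases outside the ER and is then called the integrated stress response. The genes were accordingly set in 2 sides, 24 of the XBP1/ATF6 side and 7 of the ATF4 side. The 3 sensors and ERO1A, a target of both CHOP and hypoxia signalling, were counted to neither.

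Expression was measured in SK-Mel-28, a melanoma line of human origin, stably transfected with the plasmid pSilencer 3.1-H1 neo, from which a hairpin RNA is transcribed. On 1 Affymetrix U133 Plus 2.0 array the RNA came from cells with a scrambled hairpin, and on 2 arrays the hairpin targeted melanotransferrin (MTf; its gene is MELTF), an iron-binding cell surface protein. All cells carried the vector and no untransfected cells were among the samples. The labels call the siRNA arrays B1 and B2, named siRNA array 1 and siRNA array 2 here, without saying whether they are clones, cultures or repeat preparations, so any p-value reflects the spread of these arrays alone, and that spread may be technical. The question is how the siRNA cells differ from the scrambled cells.

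Values are deposited probe set signals in linear units. Log2 differences are siRNA minus scrambled on the log2(signal + 47.4) scale, each with its standard error (SE, 1 scrambled and 2 siRNA arrays) and a two-sided limma p-value with Benjamini-Hochberg adjustment over 27306 probe sets, called past 0.05. Over all 12386 genes, 2.64% passed (1.5% higher and 1.14% lower), and the median log2 difference was 0.097. With the arrays centred on their medians 832 genes passed, 323 higher and 509 lower, around a median of -0.073, so the balance of higher and lower calls depends on the scaling. MELTF, the targeted gene, did not pass the test: its brightest probe set gave 32608 in scrambled cells against 18968 and 18974 (adjusted p = 0.0699), and the next gave 8284 against 10567 and 11199. Its dimmer probe sets were also divided, at 915.2 against 699.7 and 283.6 and at 546.4 against 693.7 and 665.7. Of 6 melanocyte markers with a probe set, all 6 lay above the highest bacterial control signal of 97.2 on every array; their sum was 266639 against 221265 and 236142. Within this list TYRP1 fell from 53204 to 5022 and 12370 (adjusted p = 0.0374), and TYR read 19988 against 35193 and 37555 (adjusted p = 0.0529). The part of this in the results was not tested. Ribosomal RNA control probe sets read 3.76 times the scrambled signal on siRNA array 1 and 1.06 times on siRNA array 2, and the part of this in the results was not tested.

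The XBP1/ATF6 side lay higher in the siRNA cells and the ATF4 side lower. Of 23 XBP1/ATF6-side genes measured, 19 were above the scrambled array on both siRNA arrays, 2 below on both and 2 divided, with a median log2 difference of 0.43 (1.35-fold), against 46.7% of all genes above on both. Of 7 ATF4-side genes, 0 were above on both, 4 below on both and 3 divided, with a median of -0.33 (0.795 of the scrambled level), against 32.5% of all genes below on both. The medians of the sides were 0.76 apart on the log2 scale, or 0.53 by siRNA array 1 and 1.26 by siRNA array 2 alone. Both siRNA arrays were set against the same scrambled array, so these are not independent repeats of the contrast.

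**Figure D1:**
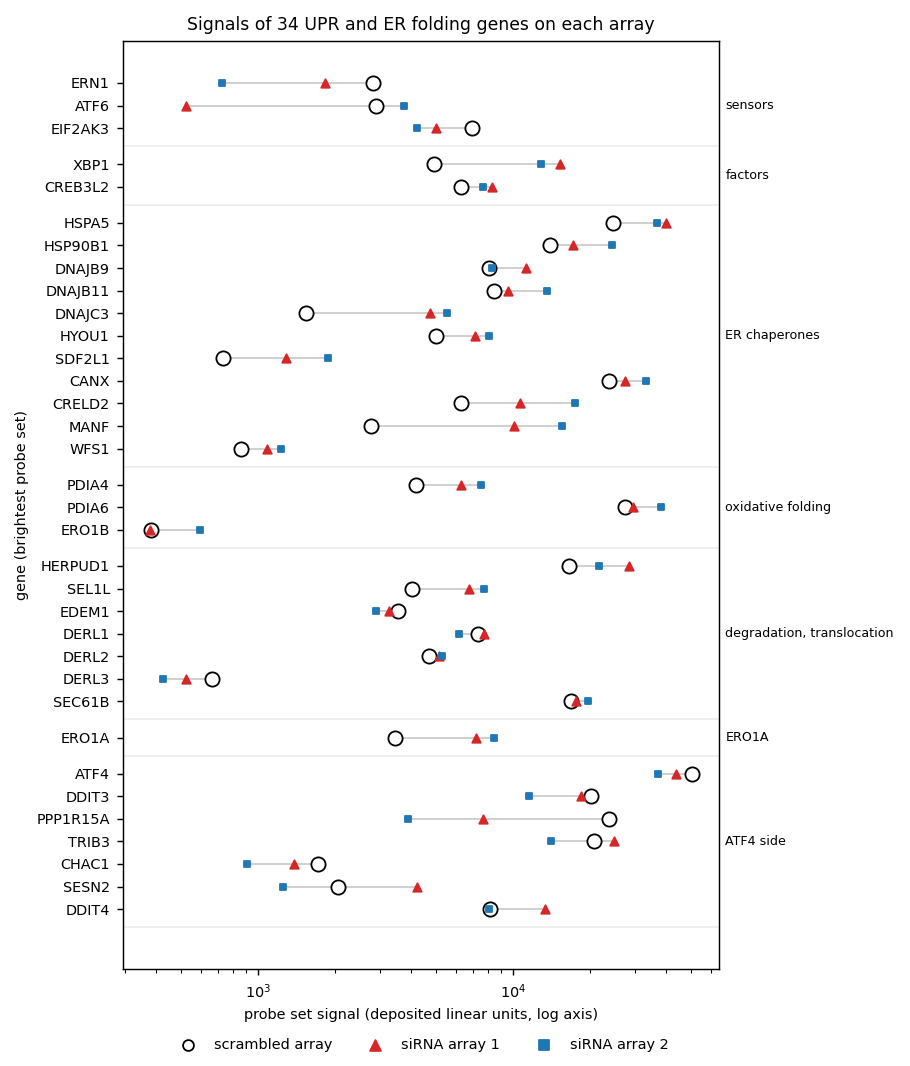
Signals of the brightest probe set of each of 34 genes on a log axis, grouped by role, with the scrambled array as an open circle, siRNA array 1 as a triangle and siRNA array 2 as a square. XBP1, DNAJC3 and MANF lie well to the right of their open circles on both siRNA arrays and PPP1R15A well to the left.

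Single genes passed the test on both sides. Of the 34 genes, 4 rose (XBP1, DNAJC3, MANF and ERO1A) and 1 fell (PPP1R15A), where 1.5% and 1.14% of all genes did. At an unadjusted p under 0.05 there were 11 higher and 3 lower, where 14.0% and 8.92% of all genes lay. Both siRNA arrays exceeded the scrambled one by 1.5-fold or more for 8 genes (12.6% of all genes) and lay below it by as much for 2 (6.81%). By probe set, 10 of the 70 past the signal filter passed, or 2.09% over all probe sets, 8 of them higher (1.19%) and 2 lower (0.905%). These belonged to 6 genes, SEL1L being the sixth. The filter uses the mean over the 3 arrays, in which the 2 siRNA arrays outweigh the scrambled one. Of the 70 probe sets, 68 were above its level in each group, of which 9 passed, 7 higher and 2 lower. All 5 gene calls were lost without the signal filter, with a stricter 75th percentile filter and with no mean-variance trend, settings in which 1, 5 and 1 of all genes passed.

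XBP1 encodes the transcription factor that carries the IRE1 signal. Its main probe set gave 4884 in scrambled cells against 15322 and 12843 in siRNA cells, 3.14 and 2.63 times as much. Both siRNA arrays were well above the scrambled one and close to each other, and XBP1 rose by 1.51 ± 0.21 (SE) on the log2 scale (adjusted p = 0.0263). A dim second XBP1 probe set, which did not pass the signal filter, went the other way, at 224.3 against 139.7 and 72.4. The signals give the amount of XBP1 mRNA and not its splicing, which was not measured. CREB3L2, an ER-anchored transcription factor of the ATF6 kind, read 6233 against 8256 and 7666, a log2 difference of 0.35 ± 0.20 (SE; adjusted p = 0.390).

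The promoters of the 4 genes with the largest differences on both siRNA arrays are shown because the ER stress response element is the textbook link between this pathway and its targets. That element (ERSE) is CCAAT, 9 unspecified bases and CCACG. Each sequence is the 250 bases before the annotated start, 5′ to 3′ along the gene, from RefSeq on build GRCh38.p14, and capitals mark the pentamers CCAAT and CCACG on either strand, which stand in 37.0% and 37.5% of the windows of 27305 genes.
XBP1 promoter, chr22:28800570-28800819, minus strand: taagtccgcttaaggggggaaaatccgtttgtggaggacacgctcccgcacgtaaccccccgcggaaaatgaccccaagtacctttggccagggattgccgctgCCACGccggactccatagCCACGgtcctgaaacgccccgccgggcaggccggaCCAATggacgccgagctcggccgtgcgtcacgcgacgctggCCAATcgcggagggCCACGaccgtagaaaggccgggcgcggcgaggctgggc
MANF promoter, chr3:51385041-51385290, plus strand: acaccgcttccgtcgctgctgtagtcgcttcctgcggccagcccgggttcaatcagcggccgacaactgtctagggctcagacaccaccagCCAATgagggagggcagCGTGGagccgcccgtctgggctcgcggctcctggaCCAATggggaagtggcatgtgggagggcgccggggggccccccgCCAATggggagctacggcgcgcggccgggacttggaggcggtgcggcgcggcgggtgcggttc
DNAJC3 promoter, chr13:95676889-95677138, plus strand: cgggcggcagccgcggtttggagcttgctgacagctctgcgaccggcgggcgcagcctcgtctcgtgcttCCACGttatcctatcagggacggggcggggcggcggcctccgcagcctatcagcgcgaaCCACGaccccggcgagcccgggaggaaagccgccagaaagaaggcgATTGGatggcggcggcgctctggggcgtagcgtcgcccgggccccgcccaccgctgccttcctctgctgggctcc
PPP1R15A promoter, chr19:48872171-48872420, plus strand: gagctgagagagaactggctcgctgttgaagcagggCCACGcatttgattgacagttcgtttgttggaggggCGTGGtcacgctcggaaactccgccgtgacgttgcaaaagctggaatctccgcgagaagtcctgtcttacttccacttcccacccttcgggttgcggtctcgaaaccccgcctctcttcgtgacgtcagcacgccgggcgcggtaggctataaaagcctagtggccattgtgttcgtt
The XBP1 window holds a complete ERSE 34 to 52 bases before the start. Of the 2 windows listed for XBP1, the 1 with the most motif matches was printed, a choice that favours finding the element. The MANF window holds 3 CCAAT pentamers and 1 CCACG, the DNAJC3 window 1 and 2, and the PPP1R15A window 0 and 2, in none of them at the spacing of the element. That these letters are missing from a 250-base window says nothing about regulation from elsewhere.

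The ER chaperones and their co-factors shared their direction. All 11 read higher on both siRNA arrays than in scrambled cells, as did 46.7% of all genes. Their median log2 difference was 0.59 (1.5-fold). Of the 11, 2 passed the test (2.64% of all genes) and 6 had an unadjusted p under 0.05 (22.9% of all genes). The median was 0.50 on siRNA array 1 and 0.68 on siRNA array 2. MANF, a small secreted ER protein that binds BiP and protects stressed cells, read 2789 against 10058.5 and 15626, 3.61 and 5.6 times the scrambled signal. It rose by 2.15 ± 0.28 (SE) on the log2 scale (adjusted p = 0.0248).

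DNAJC3 (P58IPK) is a co-chaperone of BiP and an inhibitor of PERK. It read 1542 on the scrambled array against 4744 and 5515. It rose by 1.70 ± 0.23 (SE; adjusted p = 0.0261), with both siRNA arrays above the single scrambled one, as for 46.7% of all genes. All 4 of its probe sets were higher on both siRNA arrays: the second read 812.0 against 6021 and 2984 (adjusted p = 0.0397), and the third 640.4 against 2803 and 1582 (adjusted p = 0.0694). The dimmest read 44.1 against 1118 and 757.7, below the bacterial control signal on the scrambled array, and was therefore at least 9.47-fold higher. It passed the signal filter only through the siRNA arrays, where it is high, so its test is not used.

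The other chaperones had smaller differences, and none of the other 9 passed. HSPA5 (BiP), the Hsp70 of the ER and the standard marker of the response, read 24700 against 39789 and 36809. Its log2 difference was 0.63 ± 0.17 (SE; adjusted p = 0.101), and its dimmer probe set read 922.1 against 1519 and 2152 (adjusted p = 0.144). The values of the siRNA arrays differed from each other by far less than from the scrambled array in the brighter probe set. CRELD2, a secreted ER stress protein that interacts with disulphide isomerases, read 6280 against 10681 and 17509 (1.12 ± 0.30, SE; adjusted p = 0.1). SDF2L1, a partner of BiP, read 730.8 against 1288 and 1890 (1.05 ± 0.31, SE; adjusted p = 0.125). In both, siRNA array 2 was further from the scrambled array than siRNA array 1. HYOU1 (GRP170), the nucleotide exchange factor of BiP, read 5015 against 7107 and 8051 (adjusted p = 0.184). HSP90B1 (GRP94), the Hsp90 of the ER, read 13947 against 17263 and 24549 (adjusted p = 0.25).

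The remaining chaperone genes differed by at most 0.43 on the log2 scale. DNAJB11, a J protein that serves BiP, read 8450 against 9603 and 13549. CANX (calnexin), the membrane lectin that holds glycoproteins during folding, read 23841 against 27503 and 33364, and its next 3 probe sets were also higher on both siRNA arrays. WFS1 (wolframin), an ER membrane protein lost in Wolfram syndrome, read 855.5 against 1090 and 1229 (adjusted p = 0.447), and its second probe set 337.5 against 316.0 and 327.1. DNAJB9 (ERdj4), a J protein induced by spliced XBP1, had the smallest difference of the group, at 8024 against 11209 and 8277 (0.26 ± 0.24, SE; adjusted p = 0.597). It was raised on siRNA array 1 and near the scrambled level on siRNA array 2, and 1 of its 3 probe sets was lower on siRNA array 2, at 3118 against 2250.

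The complete stress elements found in the windows of the listed genes are printed next, because they fall on genes of the XBP1/ATF6 side and none fall on the ATF4 side. Of the 35 genes, 33 matched the RefSeq promoter table (not DERL1 and DERL3). ERSE was found, on either strand, for 7 of the 22 XBP1/ATF6-side genes in the table, and for 0.0916% of all genes. ERSE-II, which is ATTGG, 1 unspecified base and CCACG, was found for 3 of the 22 and for 0.0659% of all genes. Neither was found for the 7 ATF4-side genes. The 10 XBP1/ATF6-side genes with a match were among 43 genes of 27305 with 1 in all. Since this list is made of known targets of the pathway, the share describes the list and is no result of the arrays. The last line gives the match in CHAC1 to the C/EBP-ATF element (CARE) that ATF4 binds, searched as TGATGNAA, which stands in 3.89% of windows. Each is written 5′ to 3′ in the direction of the motif, with the motif's fixed letters in capitals and its free positions in lower case.
XBP1, chr22:28800603-28800621: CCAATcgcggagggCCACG
HSPA5, chr9:125241391-125241409: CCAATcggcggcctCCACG
HSP90B1, chr12:103930216-103930234: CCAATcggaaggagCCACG
HSP90B1, chr12:103930321-103930339: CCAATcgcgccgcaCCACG
CRELD2, chr22:49918554-49918572: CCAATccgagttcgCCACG
CANX, chr5:179698778-179698796: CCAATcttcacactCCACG
PDIA6, chr2:10812853-10812871: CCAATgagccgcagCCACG
ERO1B, chr1:236282183-236282201: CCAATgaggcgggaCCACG
SDF2L1, chr22:21642114-21642124: ATTGGtCCACG
HYOU1, chr11:119057274-119057284: ATTGGaCCACG
HYOU1, chr11:119057380-119057390: ATTGGaCCACG
HERPUD1, chr16:56932025-56932035: ATTGGgCCACG
CHAC1, chr15:40953262-40953269: TGATGcAA
HSP90B1 and HYOU1 each have 2 matches. HERPUD1 has a CARE match as well, and in HYOU1 the element at the greater distance from the start overlaps a match to TGACGTG, the XBP1-binding UPR element (UPRE), found in 2.05% of windows. The 10 genes with ERSE or ERSE-II all had a log2 difference above 0, from 0.28 to 1.51, with a median of 0.58. The 11 XBP1/ATF6-side genes with a value and without either had a median of 0.42, from -0.20 to 2.15, and held MANF and DNAJC3. The ranges overlapped almost entirely, and no test was made between them.

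Oxidative folding enzymes form and rearrange disulphide bonds. PDIA4 (ERp72), a disulphide isomerase, read 4152 against 6256 and 7514 (0.72 ± 0.22, SE; adjusted p = 0.139), and its dimmer probe set 2952.5 against 3825 and 4602. PDIA6, another isomerase, read 27616 against 29597 and 37917 (adjusted p = 0.490), and its other 3 probe sets were likewise higher on both siRNA arrays. ERO1B, an oxidase that recharges the isomerases, was dim, at 382.2 against 376.5 and 591.3 (adjusted p = 0.741), so that the groups overlapped. Its relative ERO1A read 3449 against 7174 and 8441. ERO1A rose by 1.16 ± 0.22 (SE; adjusted p = 0.0493), with both siRNA arrays above the scrambled one, as for 46.7% of all genes. Its other probe sets were higher by less, at 2274 against 2557 and 3149 (adjusted p = 0.539) and at 950.0 against 1643 and 2064 (adjusted p = 0.124). The ERO1A call was also lost with quantile normalization, with the larger pseudocount and with the mean of the probe sets, with adjusted p up to 0.184 over all alternatives.

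Genes for ER-associated degradation and translocation were divided. Of 7 measured, 4 were higher on both siRNA arrays, 2 lower on both and 1 divided. Over all genes 46.7% were higher on both and 32.5% lower on both. In the brightest probe sets of the 7, 0 passed by limma (2.64% of all genes). An unadjusted p under 0.05 was found for 2 (22.9% of all genes). The median log2 difference was 0.14, close to that of all genes, and -0.029 with the arrays centred on their medians. SEL1L, the scaffold of the HRD1 ubiquitin ligase, stood out from this. Its brightest probe set read 4014 against 6706 and 7721 (0.83 ± 0.22, SE; adjusted p = 0.0963). The second rose from 684.4 to 2356 and 2045 (1.62 ± 0.26, SE; adjusted p = 0.0365). The third rose from 411.5 to 1272 and 1424 (1.6 ± 0.28, SE; adjusted p = 0.0419). The fourth read 166.8 against 231.1 and 263.0, and all 4 thus pointed the same way. As the mean of its probe sets SEL1L passed (adjusted p = 0.0366).

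HERPUD1 (HERP), which recruits substrates to that ligase, read 16615 against 28474 and 21696 (0.58 ± 0.21, SE; adjusted p = 0.192). It was the only gene of this group further from the scrambled array on siRNA array 1 than on siRNA array 2 among those higher on both. DERL2 (4706 against 5124 and 5263) and SEC61B, a subunit of the translocation channel (16891 against 17643 and 19768), differed by 0.14 each, and with arrays centred their differences were -0.029 and -0.025. EDEM1, a mannosidase-like protein that marks glycoproteins for disposal, read 3555 against 3264 and 2913 (adjusted p = 0.685). DERL3, a derlin of secretory cells, was dim, at 658.5 against 522.9 and 424.7. DERL1 went both ways among its probe sets, at 7290 against 7708 and 6125, 4506 against 6279 and 6120, and 4458 against 3567 and 3431.

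**Figure D2:**
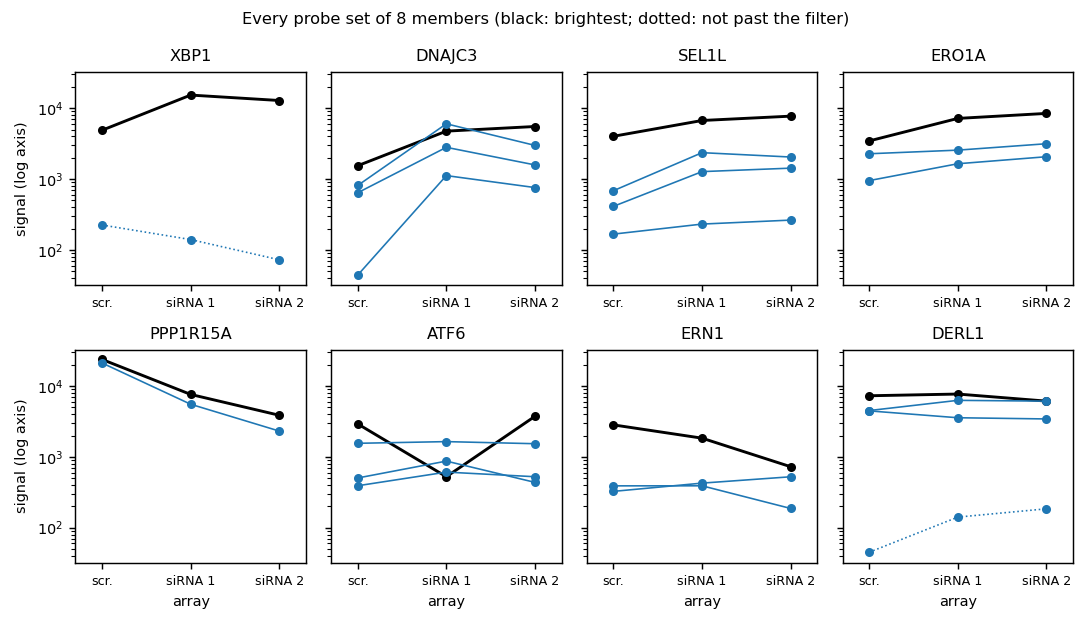
Signals of every probe set of 8 genes on the scrambled array and on siRNA arrays 1 and 2, on a log axis; the black line is the brightest probe set and dotted lines did not pass the signal filter. All 4 probe sets of DNAJC3 and of SEL1L are higher on both siRNA arrays and both of PPP1R15A are lower, whereas those of ATF6, ERN1 and DERL1 do not run in parallel.

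By their brightest probe sets the sensors did not share the direction of the chaperones, and 0 passed the test. EIF2AK3 (PERK) read 6910 against 5007 and 4199, lower on both siRNA arrays (-0.59 ± 0.23, SE; adjusted p = 0.208). ERN1 (IRE1) read 2827 against 1836 and 725.9 for the brightest of its probe sets (-1.25 ± 0.48, SE; adjusted p = 0.207). Its probe sets disagreed, since another read 325.7 against 425.8 and 523.4 and the dimmest passing one 389.6 against 390.2 and 186.9. ATF6 read 2916 against 524.2 and 3735, low on siRNA array 1 alone (adjusted p = 0.588). The next ATF6 probe set read 1554 against 1642 and 1533, so the low value belonged to 1 probe set on 1 array. The third read 503.4 against 871.3 and 436.4. The fourth read 391.0 against 609.3 and 524.2, higher on both siRNA arrays. As means of their probe sets ERN1 differed by -0.41 and ATF6 by -0.056 on the log2 scale.

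On the ATF4 side PPP1R15A (GADD34) fell. It encodes the subunit that brings protein phosphatase 1 to eIF2 and so ends the translational block. It read 23741 on the scrambled array against 7614.5 and 3869, 0.321 and 0.163 of the scrambled signal. It fell by 2.12 on the log2 scale (SE 0.37; adjusted p = 0.0413). A second probe set fell from 21151 to 5534 and 2314 (-2.55 ± 0.45, SE; adjusted p = 0.0424). In both probe sets the siRNA arrays lay far below the scrambled array, and siRNA array 2 was the lower. The call was also lost with quantile normalization (adjusted p up to 0.169 over all alternatives).

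ATF4 itself and CHOP were lower on both siRNA arrays by smaller amounts that did not pass. ATF4 read 50474 against 43431 and 37071 (-0.33 ± 0.17, SE; adjusted p = 0.344). ATF4 is controlled mainly by translation, which mRNA signals do not show. DDIT3 (CHOP) read 20211 against 18499 and 11569 (-0.46 ± 0.28, SE; adjusted p = 0.407). CHAC1, a glutathione-degrading enzyme induced by ATF4 and CHOP, read 1721 against 1388 and 909.4 (-0.59 ± 0.32, SE; adjusted p = 0.354). For DDIT3 and CHAC1 the difference was mostly on siRNA array 2.

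The other ATF4-side genes were on opposite sides of the scrambled array. TRIB3, a pseudokinase that restrains ATF4 and CHOP, read 20730 against 25022 and 14094, and its second probe set 5585 against 7429 and 2993. SESN2, a sestrin that links amino acid shortage to mTORC1, read 2056 against 4224 and 1259, and its second probe set 2102 against 2721 and 1543. DDIT4 (REDD1), an inhibitor of mTORC1 that hypoxia also induces, read 8154 against 13323 and 8094. In all 3, siRNA array 1 was above the scrambled array and siRNA array 2 below it, in DDIT4 by little. Their adjusted p-values lay between 0.571 and 0.911. With 1 array each, the difference between the siRNA arrays was not tested.

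**Figure D3:**
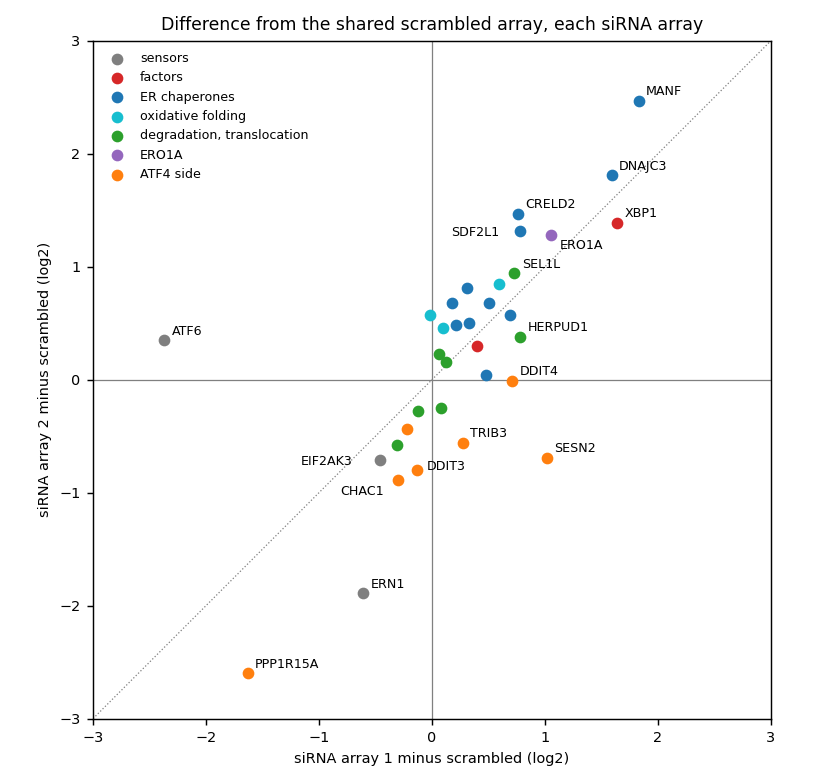
Log2 difference from the scrambled array on siRNA array 1 (horizontal) against siRNA array 2 (vertical), 1 point per gene and coloured by role; both axes share the scrambled array, and the dotted line marks equal differences. MANF, DNAJC3, XBP1 and ERO1A lie at the upper right and PPP1R15A at the lower left, while SESN2, TRIB3, DDIT4 and ATF6 lie on opposite sides of 0 on the siRNA arrays.

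The arrays differed in how far apart the sides were. On siRNA array 1 the median was 0.40 for the XBP1/ATF6 side and -0.13 for the ATF4 side, and on siRNA array 2 it was 0.57 and -0.69, against 0.057 and 0.14 over all genes. Over all listed genes, whatever their side, 6 were lower and 11 higher by at least 1.5-fold on siRNA array 2. On siRNA array 1 the counts were 3 lower and 12 higher. The lower ones included sensors, which belong to neither side: ERN1 and EIF2AK3 on siRNA array 2, and ERN1 and ATF6 on siRNA array 1. Shares of all genes on a single array are not given here. The ribosomal control signal was raised on siRNA array 1 alone, the array on which the sides lay closer together, and its part in that was not tested.

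Further genes of ER folding, a list set with earlier results of these data known, held more genes higher than lower. Of 45 measured of 51 listed, 29 were higher and 11 lower on both siRNA arrays (46.7% and 32.5% of all genes), with a median log2 difference of 0.30. By limma 4 rose and 0 fell (1.5% and 1.14% of all genes). At an unadjusted p under 0.05 there were 14 higher and 5 lower (14.0% and 8.92% of all genes). All 4 calls were lost without the filter, with the 75th percentile filter and without the trend. SEC24D, a cargo adaptor of the vesicles that leave the ER, rose from 315.5 to 1009 and 1317 (1.73 ± 0.31, SE; adjusted p = 0.0436). FKBP11, a prolyl isomerase of secretory cells, rose from 5488 to 13302 and 13442.5 (1.28 ± 0.19, SE; adjusted p = 0.0303). PDIA3 (ERp57), the isomerase that works with calnexin, rose from 3283 to 8654 and 6973 (adjusted p = 0.0485), though its other probe sets read 2546 against 2865 and 3698 (adjusted p = 0.499) and 753.5 against 1184 and 1285 (adjusted p = 0.222). PPIB (cyclophilin B) rose from 15222 to 28103 and 30549 (0.94 ± 0.18, SE; adjusted p = 0.0483), and its second probe set also passed (adjusted p = 0.0446).

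Short of the threshold in their brightest probe sets were KDELR3, a receptor that returns escaped chaperones to the ER (4550 against 9085 and 11029; adjusted p = 0.0522), the J protein DNAJC1 (4404 against 8404 and 9912.5; adjusted p = 0.0604) and FKBP14 (969.8 against 1738 and 2203; adjusted p = 0.111). In the other direction, UBE2G2, the ubiquitin-conjugating enzyme of ER degradation, read 4690 against 2312 and 2408 (adjusted p = 0.0778). The ER reductase DNAJC10 read 10403 against 6264.5 and 5628 (adjusted p = 0.0945), and the translocon subunit SEC62 read 15585 against 8988.5 and 9561 (adjusted p = 0.0939). Folding enzymes and degradation genes thus did not all go the same way. With arrays centred 8 genes of this list passed, among them UBE2G2, DNAJC10 and SEC62, which were lower.

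Further ATF4 targets were divided around a median of -0.16 over 35 genes measured of 37 listed, 11 higher and 16 lower on both siRNA arrays (46.7% and 32.5% of all genes). By limma 2 fell and 0 rose (1.14% and 1.5% of all genes). At an unadjusted p under 0.05 there were 2 higher and 5 lower (14.0% and 8.92% of all genes). Both calls were lost without the filter, with the 75th percentile filter and without the trend. Those that fell were GDF15, a stress cytokine, from 26790 to 1888 and 802.3 (adjusted p = 0.0169), and ALDH1L2, the mitochondrial formyltetrahydrofolate dehydrogenase, from 1941 to 56.5 and 159.5, at least 15.6-fold. ALDH1L2 passed the signal filter only through the scrambled array, where it is high, so its call supports nothing here. Both had been seen to fall before the list was made. Next in the lower direction were NUPR1, a stress-induced chromatin protein (14398 against 10799 and 5007; adjusted p = 0.238), the ATF4 partner CEBPG (3256 against 2382 and 1730.5; adjusted p = 0.236) and the factor ATF5 (786.1 against 537.0 and 474.2; adjusted p = 0.334). In the higher direction stood the serine and one-carbon enzymes PSPH (1919 against 3425.5 and 2833; adjusted p = 0.185) and SHMT2 (11411 against 18441 and 17218; adjusted p = 0.118) and the factor JDP2 (361.3 against 715.3 and 576.7; adjusted p = 0.248). The list thus held genes in both directions.

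Of 10 genes for eIF2, its other kinases, its exchange factor eIF2B and a phosphatase subunit, 0 passed by limma (2.64% of all genes). Their median log2 difference was 0.23. At an unadjusted p under 0.05 there were 3 higher and 1 lower (14.0% and 8.92% of all genes). The interferon-inducible kinase EIF2AK2 (PKR) read 1804 against 3281 and 3174 (adjusted p = 0.114), and the amino acid sensor EIF2AK4 (GCN2) 1953 against 3340 and 3133 (adjusted p = 0.153). The catalytic eIF2B subunit EIF2B5 read 4355 against 2184.5 and 2616 (adjusted p = 0.116), while EIF2B1 read 5299 against 7132 and 7830 (adjusted p = 0.245). EIF2B2 (adjusted p = 0.408) and EIF2B3 (adjusted p = 0.426) were lower on both siRNA arrays.

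Cytosolic and mitochondrial chaperones, which answer to other stress pathways, had a median log2 difference of -0.047 over 16 genes measured of 20 listed, against 0.59 for the 11 ER chaperones. Of the 16, 6 were higher and 8 lower on both siRNA arrays (46.7% and 32.5% of all genes). By limma 0 passed (2.64% of all genes). At an unadjusted p under 0.05 there were 3 higher and 3 lower (14.0% and 8.92% of all genes). The small heat shock gene HSPB1 read 1840 against 4525.5 and 2936 (adjusted p = 0.138), the co-chaperone BAG3 read 7423 against 11810 and 11258 (adjusted p = 0.134) and the mitochondrial Hsp90 TRAP1 read 3420 against 4708.5 and 5369.5 (adjusted p = 0.231). The mitochondrial co-chaperonin HSPE1 read 39385 against 28399 and 25006 (adjusted p = 0.138), HSPA4 read 17237 against 12690 and 12285 (adjusted p = 0.221) and the heat shock factor HSF1 read 1314 against 902.0 and 690.3 (adjusted p = 0.244). The difference between the lists is described and was not tested.

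**Figure D4:**
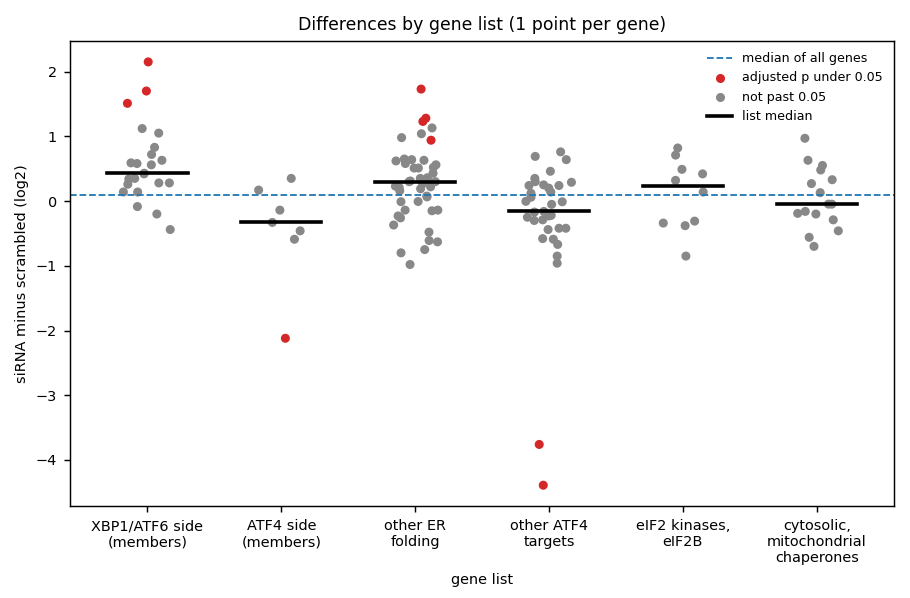
Log2 difference, siRNA minus scrambled, for each gene of 6 lists, with the list median as a black bar, genes past an adjusted p of 0.05 in red and the median of all genes (0.097) as a dashed line. The XBP1/ATF6 side (0.43) and other ER folding genes (0.30) lie above that line and the ATF4 side (-0.33), other ATF4 targets (-0.16) and non-ER chaperones (-0.047) below it.

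Plasma cells, which have an expanded ER, were looked for by their markers. Of 5 plasma cell markers, 3 were above the bacterial control signal on every array, among them IRF4, which melanocytes also express (4760 against 5461 and 5610), while MZB1 and JCHAIN stayed below it. The signals of the 5 summed to 5505 in scrambled cells against 5835 and 6264. The fibroblast list, of whose 6 genes 3 were above the bacterial control on every array, summed to 1714 against 5644 and 5958, most of it on the siRNA arrays being LUM (598.6 against 4850 and 4841), and its part in the results was not tested. The epithelial list summed to 1975 against 2893.5 and 2760 and the endothelial list to 489.1 against 409.2 and 703.5. The leukocyte list summed to 1404 against 657.7 and 575.9. Most of that was LCP1 (1130 against 477.8 and 384.7; adjusted p = 0.0804), and its part in the results was not tested. Of 4 leukocyte genes with a probe set, LCP1 and CD3E (170.7 against 146.6 and 129.0) were above the bacterial control signal on every array. PTPRC, the common leukocyte antigen, and CD14 were below that signal on all 3 arrays.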

How the data were processed

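Signals of 1 scrambled and 2 MTf siRNA arrays of SK-Mel-28 cells were analysed. Per the submitters' processing notes they were made with GCOS 1.3. They were deposited as linear intensities, 1 per probe set. Their trimmed means (2% cut from either tail) were 999.86, 999.88 and 999.87, so the arrays had been scaled before deposit. Other settings: not given in the sources used here. The number of arrays limits the precision, and the scrambled array has no replicate. There were 0 value columns of other samples.

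Of 54675 probe sets, 62 controls were left out. In the platform annotation 41091 had 1 gene, 1801 had several and 11721 had none, and those with 1 gene were used by name. Symbols were checked through Entrez identifiers (GRCh38.p14); 54 had no match.

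Signals were analysed as log2(signal + 47.4), the pseudocount being the 25th percentile, which understates changes of dim probe sets. The filter kept those whose mean log2 value exceeded the median, 7.74 (27306 probe sets, 12386 genes), and all 34 genes with a probe set of their own remained. A gene was its brightest probe set. limma 3.58.1 in R 4.3.3 (lmFit, eBayes with a trend) compared the groups with 1 residual degree of freedom, to which moderation added 6.36, which takes the spread of the scrambled array to be that of the siRNA arrays. Where a dimmer side lay below 97.2, the highest signal of the bacterial trp controls, the change is given as a lower bound from signals raised to that level.

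The members and lists were chosen with earlier results of these data known. Named were every member, and of each other list the genes past the threshold and up to 3 more in each direction with the largest smaller difference over the siRNA arrays; promoters were limited to members past the threshold or leading by that measure. Motifs were searched on both strands in the 250 bases before each start. The printing of short motif sites was decided after the values were seen. Alternatives were pseudocounts of 1 and 177.5, no filter, a 75th percentile filter, quantile normalization, arrays centred on their medians, the mean of a gene's probe sets, no trend, and each siRNA array left out.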

Additional observations from a re-analysis of the deposited data

Results flagged for a closer look

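Control probe sets for ribosomal RNA entered none of the comparisons. On siRNA array 1 the median of 6 such probe sets, taken as ratios to scrambled cells, was 3.76, and on siRNA array 2 it was 1.06.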

How the results depend on the processing

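Fits were repeated under 8 alternatives with a test. The count of listed genes past the threshold was 5, and 0 without the filter, 0 with the 75th percentile filter, 0 without the trend and 3 with quantile normalization (XBP1, DNAJC3 and MANF); limma then passed 1, 5 and 1 of all genes in the first 3 settings, and 616 with the mean of probe sets, against 327. For other ER folding genes the count was 4, and 1 with the median pseudocount, 0 without the filter, 0 with the 75th percentile filter, 2 with quantile normalization, 8 with arrays centred and 0 without the trend. For other ATF4 targets it was 2, and 0 without the filter, 0 with the 75th percentile filter and 0 without the trend. For cytosolic and mitochondrial chaperones it was 0, and 1 with arrays centred. Genes at least 1.5-fold higher on both siRNA arrays numbered 8, and 4 at 2-fold. Those lower numbered 2, and 1 at 2-fold, 1 with the median pseudocount and 1 with the mean of probe sets. On a single siRNA array the higher count was 11 to 12 and the lower 3 to 6, an alternative added after the data were seen. The XBP1/ATF6-side median of 0.43 was 0.56 with the 75th percentile filter, which left fewer genes, 0.26 with arrays centred, and 0.40 to 0.57 with an siRNA array left out. The ATF4-side median of -0.33 was -0.69 to -0.13, and the difference of the sides, 0.76, was 0.53 to 1.26, with an siRNA array left out. With ERO1A and HERPUD1 moved to the ATF4 side that difference was 0.57. With both siRNA arrays kept, genes near 0 changed sign: DERL1 to 0.0051 with quantile normalization and 0.0086 with the mean of probe sets, DERL2 to -0.029 with arrays centred and -0.030 with the mean of probe sets, SEC61B to -0.025 and SESN2 to -0.0017 with arrays centred. With siRNA array 1 left out, ATF6 went from -1.01 to 0.35, SESN2 from 0.17 to -0.69 and DDIT4 from 0.35 to -0.011. With siRNA array 2 left out, TRIB3 went from -0.14 to 0.27, ERO1B from 0.28 to -0.019 and DERL1 from -0.085 to 0.08. The cause was not tested. With an siRNA array left out no residual degree of freedom remained, so those values have no test. No paired analysis was possible because the scrambled group has a single array. Of the 76 probe sets, 6 lay under the signal filter and have no test.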

Other observations

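Outside the 35 ER stress and ER folding genes, 33 genes held ERSE or ERSE-II in the 250 bases before a start, and 18 of these passed the signal filter. This set was looked at after the other values were seen. Of the 18, 14 were higher and 3 lower on both siRNA arrays (77.8% higher, against 46.9% of all genes with a window), with a median log2 difference of 0.33 against 0.094. By limma 0 of the 18 passed, where 261 of 10096 filtered genes with a window did. At an unadjusted p under 0.05 there were 2, where 2338 of those 10096 lay. The 2 were the cytoskeletal genes NAV2 (4543 against 7330 and 11802; adjusted p = 0.119) and PLS3 (10521 against 13945 and 15049; adjusted p = 0.234). FICD, the enzyme that AMPylates BiP, read 975.9 against 1521 and 1425 (adjusted p = 0.279). CALR (calreticulin), the soluble partner of calnexin, read 4552 against 4945 and 6402 (adjusted p = 0.538). CALR also belongs to the list of further ER folding genes described above. SERP1, which stabilises membrane proteins at the translocon, read 24453 against 20316 and 18187 (adjusted p = 0.343), lower on both siRNA arrays. The 18 are not independent, since ALG12 shares its site with CRELD2 and 3 pairs of genes share a site with each other.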
